A study of Mus musculus with 6 samples.

Results

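The Myc-Max network is a small family of transcription factors that compete for the same partner and the same DNA sites. It was followed here in cultured mouse cerebellar granule neurons whose histone demethylase gene Kdm6b had been knocked down. Its 9 genes (Mycn, Myc, Max, Mxi1, Mxd1, Mxd3, Mxd4, Mnt and Mga) were taken by gene symbol from a count table of 23366 genes. All 9 were found, and all 9 passed the filter on low counts that left 15731 genes for testing.

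The cells came from cerebella of postnatal day 7 C57BL/6 mice. They were separated on a Percoll gradient and infected with lentivirus on day 1 in vitro. Control cultures received the empty pLKO.1 vector (3 libraries) and knockdown cultures the same vector carrying a short hairpin RNA against Kdm6b (3 libraries; the labels give 1 hairpin sequence). A culture was prepared from the pooled cerebella of a litter, and the empty vector carries no hairpin, so a general response to a hairpin and the response to lower Kdm6b cannot be told apart. The protocol adds BDNF (brain-derived neurotrophic factor) in certain cases, and the labels do not say which cultures received it.

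Myc proteins bind DNA only as dimers with Max, and the preferred site of these dimers is the E-box CACGTG. Mxd proteins (Mxi1 is one of them) and Mnt also pair with Max and recruit Sin3 and histone deacetylases to the same sites, so they oppose Myc proteins. In the cerebellum Mycn is the Myc gene of dividing granule cell precursors, where Sonic hedgehog signalling raises it, and it is lowered as the cells leave the cycle.

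Gene counts per library ranged from 50326298 to 88214069. Kdm6b itself was at 257, 146 and 170 CPM (counts relative to the library total, scaled by TMM) with the empty vector and at 88.8, 63.3 and 79.8 CPM with the hairpin, in the order of the replicate numbers. The summed level of 12 granule neuron markers was 4138 to 5726 CPM with the empty vector and 3882 to 5271 CPM with the hairpin. Of the 12, edgeR with the block (the replicate number as a term of the model) called 0 higher and 2 lower: Etv1, a transcription factor gene (log2 fold change −1.48, edgeR adjusted p = 0.0299), and Cntn2, an adhesion molecule gene (−0.55, edgeR adjusted p = 0.0376). Over all genes tested that fit called 2.58% higher and 5.40% lower. The median log2 fold change of the 12 was −0.18, with 8 of 12 negative, beside 0.02 over all genes tested. Markers of other cells were present too. The summed level of 10 pericyte and fibroblast markers was 13141, 23156 and 26363 CPM with the empty vector and 4328, 6973 and 11936 CPM with the hairpin, and none of the 10 was at 0. With the block edgeR called 7 of these 10 lower, beside 5.40% of all genes tested, and without the block it called 0 of the 10. The sum of 8 microglia markers was 43.7 to 80.5 CPM with the empty vector and 8.89 to 46.1 CPM with the hairpin. Of these, Tmem119 alone was at 15.4, 42.7 and 56.9 CPM with the empty vector and 5.20, 13.8 and 27.6 CPM with the hairpin. In replicate 2 it made up nearly all of the sum, 43.7 CPM with the empty vector and 14.5 CPM with the hairpin. With the block 7 of the 8 had a negative fitted value and 1 a positive one. The sum of 8 astrocyte markers was 997 to 2924 and 492 to 3132 CPM, and that of 8 oligodendrocyte markers 177 to 1147 and 147 to 861 CPM, in the same order of groups. In bulk RNA, fewer cells of a type and less RNA per cell cannot be told apart.

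Mycn was the member that changed most. Its level was 41.2, 18.0 and 23.9 CPM with the empty vector (replicates 1 to 3) and 92.0, 77.5 and 52.1 CPM with the hairpin (replicates 1 to 3). Every knockdown library was above every control library, and the lowest control library (replicate 2) had the largest step to its numbered partner. The ratio within replicate numbers was 2.23, 4.32 and 2.18. Mean and SD (n = 3) went from 27.7 ± 12.1 CPM to 73.9 ± 20.2 CPM.

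Same-numbered libraries shared much of their deviation from the group average, so 2 fits are given, one that takes the replicate number as a block and one that does not. With the block, Mycn rose by a log2 fold change of 1.46 (SE 0.22, edgeR quasi-likelihood adjusted p = 0.0376). In that fit 2.58% of the 15731 genes were called higher and 7.98% were called in either direction. Without the block the log2 fold change of Mycn was 1.42 (SE 0.36, edgeR adjusted p = 0.315). That fit called 1 gene of 15731 (0.00636%), 1661 genes (10.6%) passed an unadjusted p of 0.05 in it, limma-voom called 1 gene, and DESeq2 called 568. DESeq2 without the block called Mycn as well (log2 fold change 1.40, DESeq2 adjusted p = 0.0129), among 1.20% of genes that it called higher. The call with the block was lost when replicate 1 was left out (log2 fold change 1.62, edgeR adjusted p = 0.105), a fit that called 0 genes. It was kept when replicate 2 was left out (1.13, edgeR adjusted p = 0.0499), and also when replicate 3 was (1.62, edgeR adjusted p = 0.0342).

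**Figure D1:**
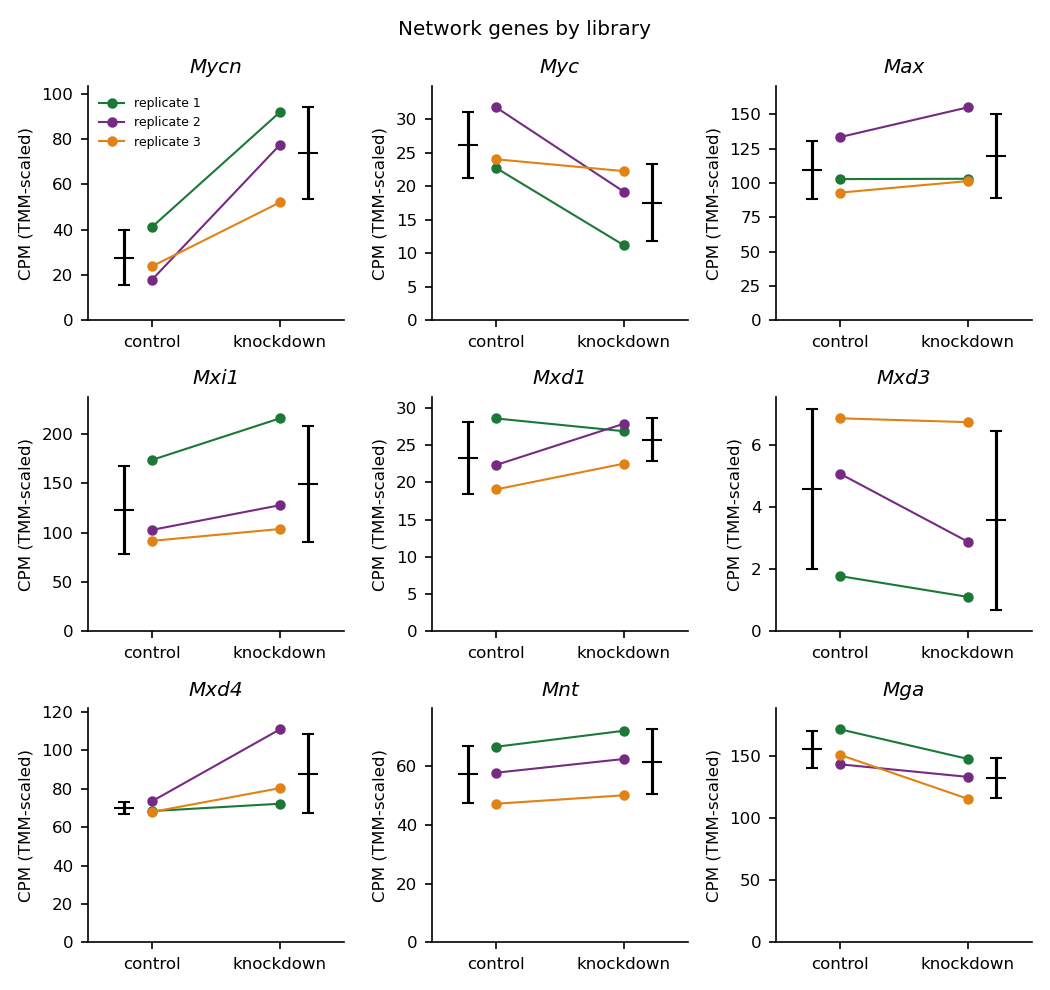
Level of each of the 9 network genes per library, as TMM-scaled CPM on linear axes that start at 0. Coloured lines link libraries that share a replicate number, and black marks give group means with their SD (n = 3). All knockdown values of Mycn lie above all control values, those of Myc lie below, and the groups of the other 7 genes overlap.

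Mycn lies on the minus strand of chromosome 12 (chr12:12936093-12941914, GENCODE annotation of build GRCm38), and no other annotated gene shares its exons. The RefSeq promoter table (build GRCm38.p6, 250 bases before to 50 after the start site) holds 8 of the 9 members and not Myc. The Mycn window is shown because its E2F-type words are crowded together. E2F factors are the S-phase regulators that classically act on this promoter. The words TTTGGCGC and TTTCGCGC were searched on both strands, and capitals mark their 3 matches. A further E2F-type word, TTTCCCGC, had no match. The first match begins 183 bases upstream of the RefSeq start site, which differs from the GENCODE one. The last ends 161 bases upstream, and the first and second share 4 bases. The stretch covers chr12:12941993-12942022 and is written on the gene's strand.
Mycn: gctTTTGGCGCGAAAggcTTTGGCGCctcc
Among the 27025 genes with a RefSeq promoter, 0.929% held at least 1 of these words, and 2 genes held 3 or more in one window. The words were picked after the data had been seen, and a match is a description of the sequence only. The Gli-type word TGGGTGGTC and the E-box CACGTG, searched on both strands, did not occur in the Mycn window, against 0.289% and 8.09% of genes that hold them.

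Myc, the founding member and the one most cell types use, moved the other way. It was at 22.8, 31.8 and 24.0 CPM with the empty vector and 11.2, 19.2 and 22.3 CPM with the hairpin. The knockdown libraries were all below the controls, narrowly so in replicate 3, and 7.44% of all genes tested had knockdown values below all controls. With library totals alone as the scaling, the groups of Myc overlapped. The log2 fold change was −0.62 with the block (SE 0.19, edgeR adjusted p = 0.0989) and −0.58 without it (SE 0.28, edgeR adjusted p = 0.526), so Myc did not pass. It was called by DESeq2 with the block (−0.64, DESeq2 adjusted p = 0.0151), among 15.6% of genes that this fit called lower, and by edgeR with the block without replicate 3 (−0.88, edgeR adjusted p = 0.0342). The summed level of the pericyte and fibroblast markers above was also lower in the knockdown in all 3 pairs, and 9 of the 10 had a negative fitted value with the block (Rgs5 did not). Their part in the level of Myc was not tested.

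The third family member, Mycl (Mycl1 in the table, matched through RefSeq synonyms), is outside the 9 genes and is named after its values were seen. It was at 18.3, 6.12 and 12.8 CPM with the empty vector and 28.6, 33.2 and 21.5 CPM with the hairpin. As for Mycn, the groups did not overlap and control replicate 2 was lowest. Higher knockdown values without overlap were found for 9.21% of all genes tested. Its log2 fold change of 1.24 with the block (SE 0.39, edgeR adjusted p = 0.104) did not pass, while DESeq2 with the block called it (1.24, DESeq2 adjusted p = 0.00268), among 8.10% of genes called higher.

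Max, the shared partner of both sides, was at 103, 133 and 93.0 CPM with the empty vector and 103, 155 and 101 CPM with the hairpin. The groups overlapped almost entirely, and replicate 2 was highest in both. The log2 fold change with the block was 0.12 (SE 0.07, edgeR adjusted p = 0.316).

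The 4 Mxd genes are antagonists that in many lineages appear as cells differentiate, except Mxd3, which is found in cells in S phase. Mxi1 was the most abundant of them, at 174, 103 and 91.7 CPM with the empty vector and 216, 128 and 104 CPM with the hairpin. Replicate 1 was high in both groups, and each knockdown library exceeded its numbered partner, by ratios of 1.24, 1.24 and 1.13. Mxi1 did not pass (log2 fold change 0.27 with the block, SE 0.07, edgeR adjusted p = 0.0715). Mxd4 was at 68.4, 73.5 and 68.0 CPM with the empty vector and 72.3, 111 and 80.4 CPM with the hairpin. The 3 controls were close together and knockdown replicate 2 stood above the rest. Under TMM the groups of Mxd4 overlapped, and under upper-quartile factors or library totals alone they did not (log2 fold change 0.30 with the block, SE 0.12, edgeR adjusted p = 0.144).

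Mxd1 was at 28.6, 22.3 and 19.1 CPM with the empty vector and 26.9, 27.9 and 22.5 CPM with the hairpin, lower in pair 1 and higher in the other two (log2 fold change 0.16 with the block, SE 0.11, edgeR adjusted p = 0.359). Mxd3 was the least abundant member, at 1.78, 5.06 and 6.84 CPM with the empty vector and 1.11, 2.88 and 6.72 CPM with the hairpin. Its spread followed the replicate number more than the group: replicate 1 was lowest and replicate 3 highest in both. The proliferation marker Mki67 had the same order, at 23.8, 81.2 and 135 CPM with the empty vector and 8.52, 31.9 and 91.7 CPM with the hairpin, and its relation to Mxd3 was not tested. Mxd3 did not pass (log2 fold change −0.50 with the block, SE 0.21, edgeR adjusted p = 0.178). Exons of Mxi1, Mxd3 and Mxd4 overlap genes on the opposite strand (Gm10197, Prelid1 and Gm42846). The sources used here do not give the strand setting of the count, which leaves the levels of these 3 uncertain. Exons of Kdm6b overlap the opposite-strand gene Kdm6bos, so its level carries the same limit.

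Mnt, a constitutive antagonist of Myc proteins, was at 66.7, 57.9 and 47.3 CPM with the empty vector and 72.2, 62.6 and 50.2 CPM with the hairpin. The step was small and alike in all pairs (ratios 1.08, 1.08 and 1.06), and the groups overlapped (log2 fold change 0.10 with the block, SE 0.06, edgeR adjusted p = 0.306). Mga, a very large Max partner that also carries a T-box domain and belongs to a Polycomb-type repressor complex, was at 172, 143 and 151 CPM with the empty vector and 148, 133 and 116 CPM with the hairpin. It was lower in each pair, yet the highest knockdown library exceeded the lowest control library (log2 fold change −0.24 with the block, SE 0.08, edgeR adjusted p = 0.120).

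In all, edgeR with the block called 1 of 9 members higher (Mycn) and 0 lower, and edgeR without it called 0 of 9. DESeq2 called Mycn higher in both fits and, with the block, Myc lower. The median log2 fold change of the 9 was 0.12 with the block, beside 0.02 over all genes tested. Of the 9, 6 had a positive and 3 a negative fitted value. Mycn, Max, Mxi1, Mxd4 and Mnt (5 of 9) were higher in all 3 pairs, beside 31.7% of all genes tested, and Myc, Mxd3 and Mga (3 of 9) were lower in all 3, beside 28.5%. For 2 of 9 the groups did not overlap, beside 16.7% of all genes tested.

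**Figure D2:**
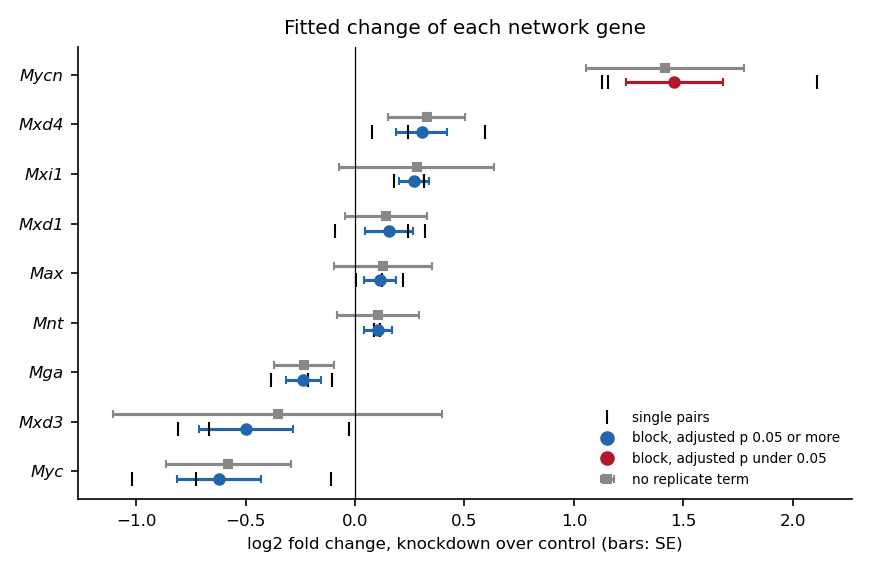
Change of each network gene on the log2 scale, knockdown over control, with the SE as a bar, from the fit with the replicate block (circles) and without it (grey squares), and the difference within each replicate pair as a tick. Mycn at 1.46 is the only red point, that is, the only member past an adjusted p of 0.05 with the block.

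Levels of different genes were compared per length, as CPM per kilobase of merged exons in the GENCODE annotation. In controls Max led at 30.5 ± 5.86 CPM per kilobase (SD, n = 3), and its lowest library was above the highest of Mxi1, the next at 18.0 ± 6.52. Mxi1, Mnt (12.4 ± 2.10), Mga (10.1 ± 0.951), Myc (9.64 ± 1.80), Mycn (8.40 ± 3.67) and Mxd4 (8.25 ± 0.364) followed in this order of mean length-scaled level, and each overlapped its neighbour. Mxd1 (3.30 ± 0.684) and Mxd3 (1.92 ± 1.08) were lowest and overlapped each other. In knockdowns Mycn stood second after Max, at 22.4 ± 6.13 CPM per kilobase (SD, n = 3), overlapping Mxi1 (21.9 ± 8.65), and Myc was seventh at 6.46 ± 2.10, below Mga (8.62 ± 1.05), which it overlapped. Merged exons pool all annotated transcripts of a gene, and the order depends on this length. On mean CPM without the length, knockdown Mycn (73.9) was below Mxi1 (149), Mga (132), Max (120) and Mxd4 (87.9).

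**Figure D3:**
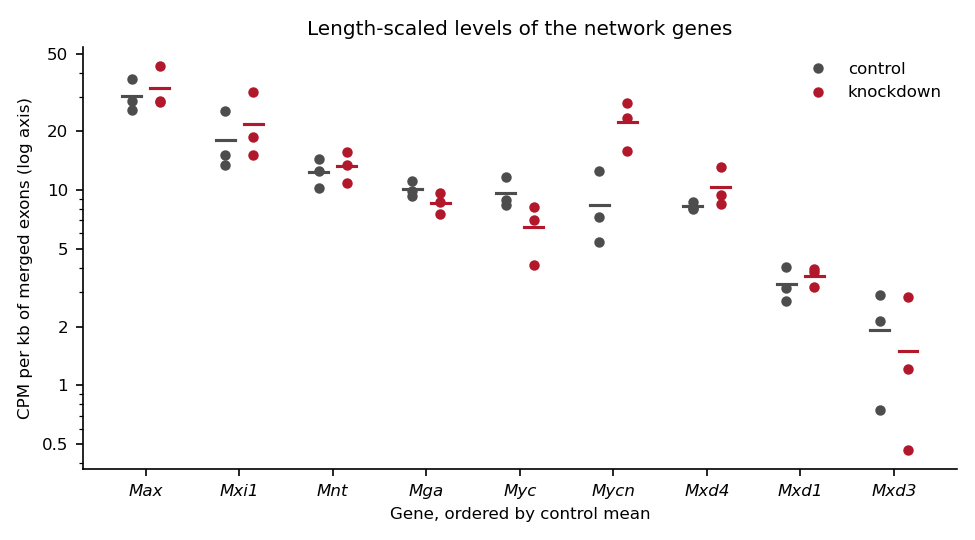
CPM per kilobase of merged exons (log axis) of the 9 genes in each control (grey) and knockdown (red) library, with group means as bars, ordered by the control mean. Mycn moves from sixth place in controls to second in knockdowns, and Max is highest in both.

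The balance between members was also described per library. On the length-scaled levels Mycn made up 59.9%, 31.8% and 45.0% of Mycn plus Myc in control replicates 1 to 3 and 87.1%, 76.9% and 65.9% in knockdown replicates 1 to 3. All knockdown shares were above all control shares. The length-scaled ratio of Mycn to Max was 0.438, 0.147 and 0.280 in controls and 0.974, 0.546 and 0.561 in knockdowns. In knockdown replicate 1 Mycn transcript was thus close to the level of Max. The sum of Myc and Mycn divided by the sum of the 6 other Max partners (Mxi1, Mxd1, Mxd3, Mxd4, Mnt and Mga) was 0.327, 0.337 and 0.342 in controls and 0.460, 0.517 and 0.489 in knockdowns. The 3 controls were nearly equal in this ratio, although Mycn and Myc each differed between them. The sum of the 6 antagonist genes was 54.0 ± 8.82 in controls and 59.3 ± 10.3 CPM per kilobase in knockdowns (SD, n = 3), with overlapping groups. These sums rest on members chosen with results of these data known and carry no test.

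**Figure D4:**
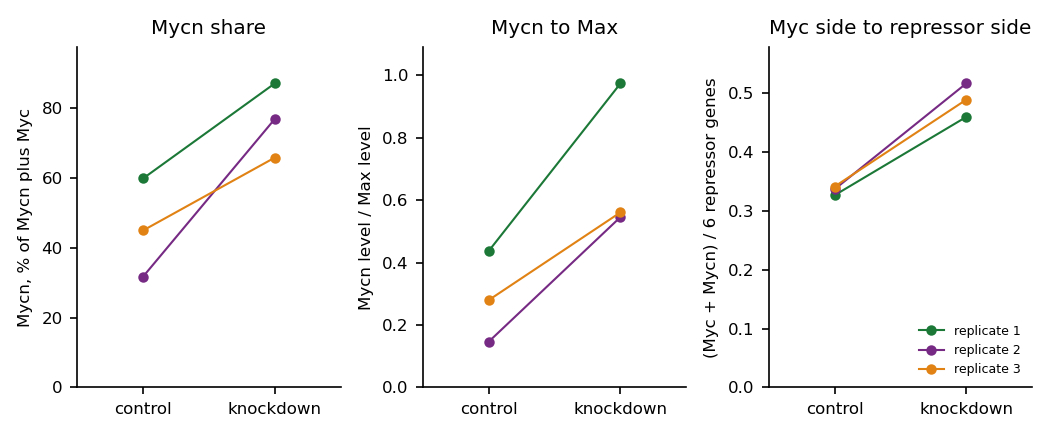
Length-scaled balance in each library, with a line joining libraries of the same replicate number: Mycn as a percentage of Mycn plus Myc, the ratio of Mycn to Max, and the ratio of Myc plus Mycn to the 6 antagonist genes. The last ratio lies at 0.327 to 0.342 in controls and 0.460 to 0.517 in knockdowns.

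Of the 8 members with a promoter window, 3 hold the E-box CACGTG, the site that dimers of the network themselves recognise: Max, Mnt and Mxd4. They are shown because genes of the network are known to act on one another's promoters. Capitals mark the E-box, which reads the same on both strands. The stretches cover chr12:76962234-76962263 (minus strand), chr11:74830789-74830818 (plus strand) and chr5:34187912-34187941 (minus strand) in GRCm38.p6.
Max: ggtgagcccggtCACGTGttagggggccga
Mnt: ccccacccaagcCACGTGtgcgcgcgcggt
Mxd4: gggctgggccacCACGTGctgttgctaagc
The E-box of Max lies across its RefSeq start site. In the GENCODE annotation Max starts at chr12:76962201, downstream of the printed stretch. The fitted changes of these 3 genes with the block were 0.12, 0.10 and 0.30 on the log2 scale, and none of the 3 passed. The word occurs in 8.09% of all genes with a RefSeq promoter.

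The hairpin contains the 7-base word ACAAGTG. Searched in each gene's longest 3′ UTR, the word occurred in 11.4% of 14020 tested genes, whose median log2 fold change with the block was −0.15, beside 0.02 for those without it. The genes with and without the word were not matched for 3′ UTR length, and no other word was searched for comparison. Whether the word itself accounts for the difference was not tested. Among the members Mga, Mnt and Mxd1 each held it in 2 places, and the 3′ UTRs of Mycn, Myc, Max, Mxi1, Mxd3 and Mxd4 held none. Of the 3 with the word, Mga had a negative fitted value and Mnt and Mxd1 positive ones.

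The genes around the network were read from lists, as counts of members past the edgeR test with the block over all genes. Without the block edgeR called no member of any list. The Mlx branch is a parallel arm in which Mlx takes the place of Max and its Mondo partners (Mlxip and Mlxipl) respond to glucose. Of its 5 genes 1 rose and 0 fell: Arrdc4, an arrestin-domain target of Mondo-Mlx, at 79.9, 44.8 and 72.7 CPM with the empty vector and 107, 64.5 and 107 CPM with the hairpin (log2 fold change 0.50, SE 0.07, edgeR adjusted p = 0.0319). The companion target Txnip did not pass (0.32, SE 0.09, edgeR adjusted p = 0.0896), nor did Mlx, Mlxip and Mlxipl. Of 7 other E-box factors, Mycl included, 1 rose: Usf2, at 103 to 122 CPM in the controls and 128 to 155 CPM in the knockdowns (0.38, SE 0.07, edgeR adjusted p = 0.0455).

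Few cofactors were called. Of 15 cofactors of the Myc side 1 fell, Actl6a, an actin-related subunit of chromatin complexes of proliferating cells (24.2 ± 3.12 to 16.5 ± 2.40 CPM, SD, n = 3; log2 fold change −0.55, edgeR adjusted p = 0.0387). Of 10 Sin3 and deacetylase genes 0 were called. Hdac2, the deacetylase with the smallest p among them, was at 117 to 133 CPM with the empty vector and 134 to 170 CPM with the hairpin (0.28, SE 0.07, edgeR adjusted p = 0.0686). Of 17 genes that control the turnover of Myc proteins 0 were called, and Skp2, an F-box ubiquitin ligase subunit, had the smallest p (−0.37, SE 0.10, edgeR adjusted p = 0.0808). Fbxw7, the ligase that marks phosphorylated Mycn for destruction, had a log2 fold change of −0.01 (SE 0.09). DESeq2 with the block called 0 higher and 1 lower of the 15 cofactors. It called 2 higher and 1 lower of the 10 Sin3 and deacetylase genes, and 0 higher and 5 lower of the 17 turnover genes. Over all genes that fit called 8.10% higher and 15.6% lower.

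Genes that Myc proteins commonly activate were read from 3 lists. Of 28 ribosome biogenesis genes 0 rose and 1 fell, with 24 negative fitted values and a median log2 fold change of −0.14. The 1 was Utp20, a processome subunit (43.0 ± 12.3 to 28.7 ± 6.57 CPM, SD, n = 3; log2 fold change −0.57, edgeR adjusted p = 0.0403). Of 29 metabolic and translation genes 0 rose and 3 fell, with a median of −0.26. The median log2 difference of this list in replicate pairs 1 to 3 was −0.016, −0.48 and −0.25. That of the ribosome biogenesis list was −0.008, −0.27 and −0.11, so pair 1 showed almost no shift in either list. The mitochondrial folate enzyme Mthfd2 went from 18.5, 44.6 and 31.0 CPM with the empty vector to 7.40, 11.5 and 15.1 CPM with the hairpin (−1.44, SE 0.20, edgeR adjusted p = 0.0324), without overlap between the groups. The nucleoside diphosphate kinase Nme2 fell too (−0.46, edgeR adjusted p = 0.0336). Odc1, the polyamine enzyme often used as a readout of Myc, had a log2 fold change of −0.06 (SE 0.09, edgeR adjusted p = 0.705).

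Of 16 cell cycle genes 1 rose and 2 fell, with a median log2 fold change of −0.15. The median log2 difference of the list in replicate pairs 1 to 3 was −0.28, −0.31 and 0.06. The ribonucleotide reductase subunit Rrm2 was at 13.7, 40.6 and 50.9 CPM with the empty vector and 1.34, 5.38 and 13.3 CPM with the hairpin (−2.70, SE 0.30, edgeR adjusted p = 0.0282), and the helicase subunit Mcm5 fell by 1.08 on the log2 scale (edgeR adjusted p = 0.0469). The riser was E2f2, an E2F factor, from 1.54 ± 0.614 to 3.20 ± 1.68 CPM (SD, n = 3; 1.02, SE 0.19, edgeR adjusted p = 0.0470). The D-type cyclin genes of granule precursors did not pass, Ccnd1 at −0.45 (SE 0.21, edgeR adjusted p = 0.206) and Ccnd2 at −0.09 (SE 0.10, edgeR adjusted p = 0.540). Of 8 genes that Myc proteins commonly repress 0 were called, and the inhibitor gene Cdkn2b had the smallest p (−0.54, SE 0.11, edgeR adjusted p = 0.0535). The edgeR counts of called genes in all the lists around the network stand beside 2.58% higher and 5.40% lower over all genes. Falls thus outnumber rises over all genes too. With library totals alone as the scaling, that split over all genes turned to 723 higher and 553 lower. DESeq2 with the block called 0 higher and 4 lower of the 28 ribosome biogenesis genes, and 1 higher and 12 lower of the 29 metabolic ones. It called 1 higher and 4 lower of the 16 cell cycle genes, and 2 higher and 1 lower of the 8 repressed genes. Over all genes that fit called 8.10% higher and 15.6% lower.

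**Figure D5:**
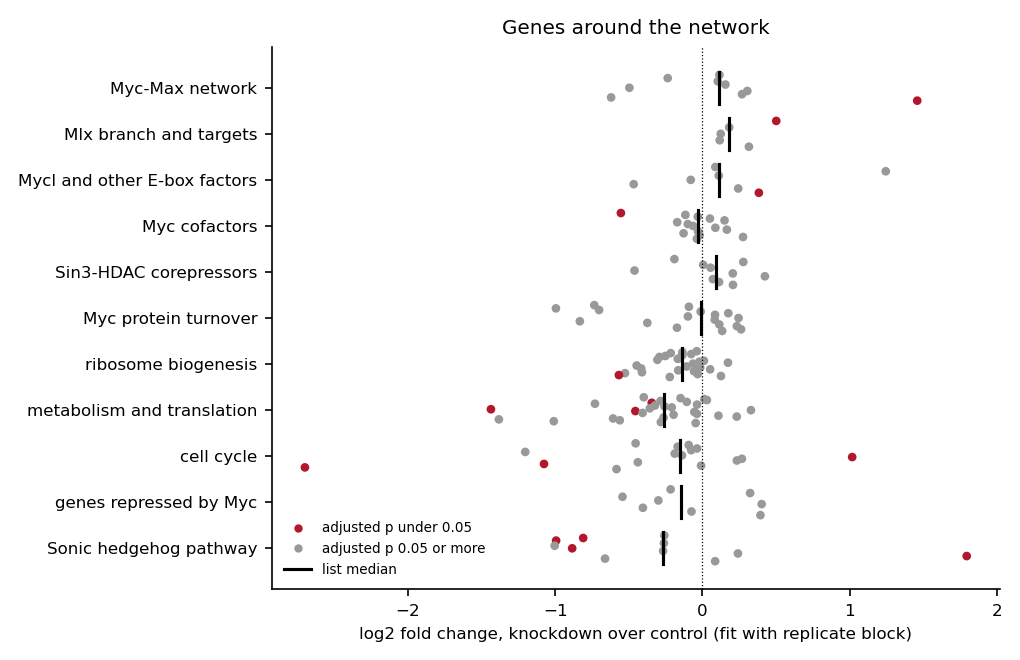
Log2 fold change with the replicate block of each tested gene of the network and of 10 lists around it, with list medians as black bars and genes past an adjusted p of 0.05 over all genes in red. The medians of the ribosome biogenesis, metabolic and cell cycle lists lie at −0.14, −0.26 and −0.15, while Mycn lies at 1.46.

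The Sonic hedgehog pathway lies upstream of Mycn in precursors. Of its 11 tested genes 1 rose and 3 fell, with a median log2 fold change of −0.27. This count and that of the precursor markers below stand beside 2.58% higher and 5.40% lower over all genes tested. The coreceptor Cdon (105 ± 23.7 to 61.1 ± 19.5 CPM, SD, n = 3; −0.81, edgeR adjusted p = 0.0282), the transcription factor gene Gli3 (−0.89, edgeR adjusted p = 0.0362) and the coreceptor Gas1 (−0.99, edgeR adjusted p = 0.0431) fell. Of 9 tested precursor markers, some shared with the lists above, 1 rose and 2 fell. The rise was that of Barhl1, a homeobox gene of the granule lineage, at 74.2, 17.3 and 47.3 CPM with the empty vector and 234, 79.7 and 97.9 CPM with the hairpin (1.63, SE 0.23, edgeR adjusted p = 0.0335). Mfap4 (−1.65, SE 0.14, edgeR adjusted p = 0.0282) and Mki67 (−1.12, SE 0.20, edgeR adjusted p = 0.0448) fell. Shh itself did not pass the count filter, at 4, 7 and 6 counts with the empty vector and 19, 9 and 4 with the hairpin. The precursor factor Atoh1 did not pass it either, at 18, 1 and 3 counts with the empty vector and 76, 5 and 7 with the hairpin.

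The genes whose level over the 6 libraries was most like that of Mycn were taken by Pearson correlation of log2 CPM. They came from the 11781 genes whose mean reached 5 CPM, a number that includes Mycn itself. The first 5 were Syt5 (0.9996), Cdh10 (0.997), Mal2 (0.997), Aggf1 (0.996) and Tlx3 (0.996). Syt5, a synaptotagmin of vesicles, was at 30.4, 14.6 and 19.5 CPM with the empty vector and 62.6, 55.0 and 38.1 CPM with the hairpin. The 5 most opposite were Jak1 (−0.997), Serpinb9 (−0.995), Stx4a (−0.995), Wasf2 (−0.993) and Mrpl39 (−0.993). Serpinb9, a protease inhibitor, was at 22.7, 43.3 and 38.2 CPM with the empty vector and 10.8, 13.6 and 17.0 CPM with the hairpin. These values describe 6 libraries that share the group difference and the replicate numbers, and as the extremes of many genes they carry no p.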

How the data were processed

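Stranded mRNA libraries were sequenced with 50 bp single-end reads, per the labels' protocols. Values were deposited as raw counts, whole numbers of reads assigned to each gene. Trimmomatic, TopHat2, HTSeq, edgeR and DESeq2 with build mm9 are named in the submitters' processing notes. No version, annotation or strand setting is stated there. Tallies that name no gene (no feature 12.1% to 15.0%, ambiguous 0.406% to 0.509%, not unique 16.0% to 19.3% of all counts) were left out.

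Low genes were removed by filterByExpr (minimum count 10, minimum total 15) and libraries scaled by TMM, then edgeR 4.0.16 (R 4.3.3) was run by its quasi-likelihood test, with Benjamini-Hochberg adjustment at 0.05 over all genes tested. Standard errors were derived from the fold change and its F statistic. Deviations of same-numbered libraries correlated at 0.772, 0.709 and 0.701 across genes, and the block rests on this and not on the labels. The labels number the replicates and do not say that they are separate cultures, so a p-value speaks only for the spread among these 6 libraries. Replicates differed by more than sampling noise.

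The members and lists were chosen with earlier results of these data known. Named genes were the 9 members, Kdm6b, up to 3 called genes per list or else the one with the smallest p, and the 5 genes most like and most opposite to Mycn. Mycl, Rgs5, Txnip, Fbxw7, Odc1, Ccnd1, Ccnd2, Gas1, Shh and Atoh1 were added after their values were seen. The rule's picks in the glial lists other than Tmem119, and those in the vessel and interneuron lists, are not described. Some genes that the rule picks are left out of the text. Gene lengths, overlaps and 3′ UTRs came from GENCODE M21 (GRCm38), matched by name. In a simulation of 15731 genes, edgeR without the block found 1 of 67 genes altered 2-fold and 32 of 66 altered 4-fold, with 0 false calls, and with the block 47 and 63, with 11 false calls. The simulated means carried a replicate effect, and their dispersions came from the fit with the block. A gain from the block was thus built in, and the simulation cannot decide between the 2 fits. The alternatives tried were library totals alone, RLE or upper-quartile scaling, 2 other filters, DESeq2 1.42.0, limma-voom (limma 3.58.1), the replicate block and leaving out libraries or pairs.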

Additional observations from a re-analysis of the deposited data

How the results depend on the processing

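The direction of Mycn was positive in every fit that was run, 14 without the replicate block and 11 with it. Its log2 fold change without the block was called by DESeq2 (1.40) and by no other tool or scaling, and leaving out 1 library at a time gave 1.18 to 1.82. With the replicate block it was called at 1.46, and also with library totals alone (1.53), RLE factors (1.44), upper-quartile factors (1.47), no filter (1.45), a mean of at least 5 CPM (1.46), DESeq2 (1.44) and limma-voom (1.44); leaving out a pair gave 1.13 to 1.62 and lost the call without replicate 1. The number of network genes called was 0 without the block, 1 by DESeq2, 1 with the replicate block under edgeR and limma-voom settings, 2 with DESeq2 and the block (Mycn and Myc), and 0 to 2 when a pair was left out. Over all genes, 1 was called without the block, 0 with library totals alone, 0 in each fit without 1 library, and 568 by DESeq2. With the replicate block the count was 1256 (406 higher, 850 lower), with RLE factors 1342, upper-quartile factors 1350, no filter 1598, a mean of at least 5 CPM 1439, DESeq2 3440 and limma-voom 1394, with library totals alone 1276 (723 higher, 553 lower), and it was 0, 53 and 1272 without replicates 1, 2 and 3. The sign of a member reversed in 6 cases, spread over 3 of the fits that left out 1 library, all in members that passed no edgeR test. These were Max without knockdown replicate 2 (−0.12; range over libraries left out −0.12 to 0.29), Mxi1 without knockdown replicate 1 (−0.086; −0.086 to 0.62), Mxd3 without control replicate 3 (0.05) and knockdown replicate 1 (0.075; −1.20 to 0.075), and Mnt without control replicate 3 and knockdown replicate 1 (−0.026 and −0.025; −0.026 to 0.23). The cause was not tested. The ratio of Myc-side to antagonist sums was 1.46-fold higher in knockdowns per length and 1.60-fold without division by length. Mxd3 had the fewest counts of the members, 99 to 459 a library.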
